A study of Mus musculus with 11 samples.

Results

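Hearts of mouse embryos with 2 floxed alleles of Gata4 were compared with hearts that had 1 floxed and 1 wild-type allele, both in the presence of Cre recombinase. The comparison used 8 of the 11 arrays of the study, chosen by the genotype in their labels. The double heterozygous group (n = 3 arrays) was Gata4 flox/+ with Nkx2-5 cre/+, and the conditional knockout group (CKO, n = 5 arrays) was Gata4 flox/flox with Nkx2-5 cre/+. Both groups therefore carried 1 Nkx2-5 allele into which Cre was placed and 1 remaining Nkx2-5 allele, and they differed in the second Gata4 allele, which was wild type in one group and floxed in the other. The remaining 3 arrays, called control here, were Gata4 flox/+ with Nkx2-5 +/+ and had no Cre. They entered the fit to help estimate the spread between arrays, and their levels are given for orientation. All 11 samples were pooled hearts of embryonic day 9.5. Cre acts only where and when the Nkx2-5 locus is active, so cells of the heart that never express Nkx2-5 are not targeted. Each Cre carrier is also short of 1 Nkx2-5 copy, which this comparison does not vary. The labels do not say that the replicates came from separate pools, so the p-values below rest on how far these samples differ among themselves, and that spread may be technical.

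GATA4 is a zinc-finger transcription factor that binds the letters GATA in promoters and enhancers of cardiac genes and works with NKX2-5, TBX5 and the cofactor FOG2. It is made in precardiac mesoderm, myocardium and endocardium, and in the proepicardium and parts of the foregut. In the early heart it is known for its part in the growth of the myocardium and in the making of endocardial cushions. The series is titled for the part of Gata4 in proliferation of myocardium from the second heart field, the progenitor pool that adds the right ventricle and outflow tract, and names cyclin D2, the product of Ccnd2.

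Expression was read on 1-colour oligonucleotide arrays that give 1 intensity per probe set. All levels below are log2 of the intensity plus 16 after quantile normalisation, called log2 intensity, and a difference is the CKO mean minus the double heterozygous mean on that scale, so that 1 unit is a doubling and the change of dim genes is understated. A probe set was called when its p-value from limma, adjusted by Benjamini-Hochberg over all 45037 probe sets, was under 0.05, and each of 18193 genes was read on 1 probe set, in general its brightest. The arrays of the CKO group were the least alike. On CKO replicate 2 the 3' end of beta-actin read 1.05 log2 units above its 5' end, where the other arrays gave 0.27 to 0.45, and CKO replicate 3 was dimmer as a whole (mean intensity 117.2, others 166.4 to 175.6). The number of arrays limits the precision, and 1 SE of a gene's difference was 0.15 at the median.

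Gata4 itself did not read lower in the group with 2 floxed alleles. Its brighter probe set was at 9.40, 9.21 and 9.33 on the 3 double heterozygous arrays and at 9.53, 9.28, 9.45, 9.37 and 9.53 on the 5 CKO arrays, after 8.77, 9.09 and 9.09 on the control arrays. The double heterozygous and CKO arrays overlapped, and the control arrays lay below both. The difference was 0.12 (SE 0.097, adjusted p = 0.670), and its sign changed with the scaling (0 on the scale as deposited, -0.05 after median centring) and was -0.10 when both probe sets were averaged. On the dimmer Gata4 probe set the difference was -0.32 (SE 0.38). The sources used here do not say whether either probe set lies inside the deleted part of the gene, so this signal does not check the labels, and the second group is called CKO-labelled from here on. The close relatives Gata5 and Gata6, which also act in the early heart, were 0.18 and 0.22 above the double heterozygous mean without passing (adjusted p = 0.490 and 0.260). All 5 CKO-labelled arrays lay above the 3 double heterozygous arrays for Gata6 (9.46 to 9.62 against 9.25 to 9.39) and not for Gata5. FOG1, encoded by Zfpm1, was at -0.20 and FOG2, encoded by Zfpm2, at -0.17, and 0 of these 5 genes were called. Nkx2-5, whose locus holds the Cre in both groups, was at 9.54, 9.53 and 9.37 on the double heterozygous arrays and at 9.35, 9.59, 9.65, 8.78 and 9.32 on the CKO-labelled arrays, a difference of -0.14 (SE 0.15, adjusted p = 0.746). The control arrays, with both Nkx2-5 copies intact, read 9.83 to 9.93, above all 8 arrays with Cre.

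Among called genes, rises outnumbered falls between the groups with Cre. Of 45037 probe sets 157 were called (0.349%), 129 higher (0.286%) and 28 lower (0.0622%) in CKO-labelled arrays. Read on 1 probe set per gene, 94 of 18193 genes were called (0.517%), 74 higher (0.407%) and 20 lower (0.110%), and 13.2% had an unadjusted p under 0.05. The smallest called difference was 0.34. The median difference over all genes was -0.016 and 46.8% of genes had a higher mean in CKO-labelled arrays. Quantile normalisation gives every array the same distribution, so these values cannot show whether the whole array shifted. With median centring of the arrays 65 probe sets were called and 66.2% of them were higher, where 82.2% were higher in the setting used here. The share was 65.1% with array weights, 66.7% without CKO replicates 2 and 3, and 68.7% over genes when a gene's probe sets were averaged. In 9.09% of all genes the 5 CKO-labelled arrays did not overlap the 3 double heterozygous arrays (3.41% higher and 5.68% lower), and the 94 called genes were all among them.

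**Figure D1:**
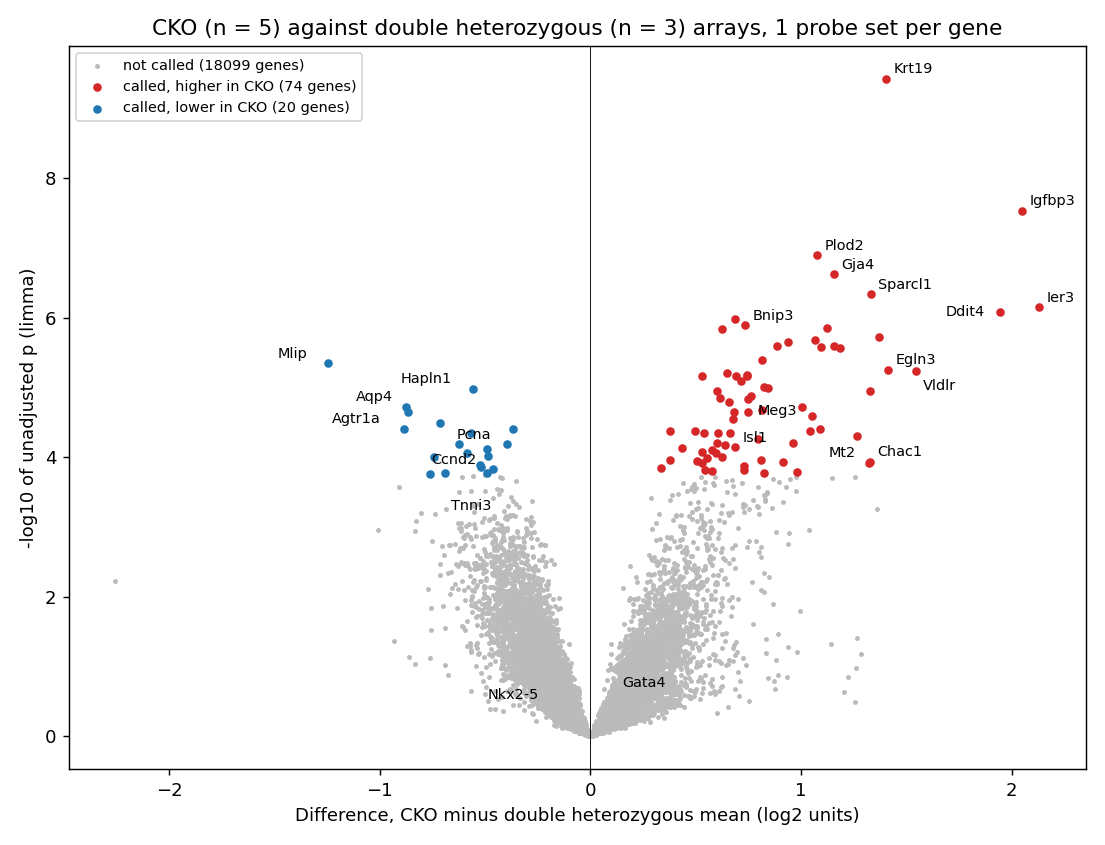
Each point is 1 of 18193 genes; the horizontal axis is the CKO-labelled minus double heterozygous mean in log2 units and the vertical axis -log10 of the unadjusted p from limma. Red points are the 74 genes called higher and blue points the 20 called lower, with Krt19 highest on the vertical axis and Ier3, Igfbp3 and Ddit4 farthest to the right.

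The number of calls rested on single arrays. Without double heterozygous replicate 1, 2 or 3 there were 15, 35 and 78 called probe sets, without CKO replicate 1, 2 or 3 there were 251, 206 and 417, without CKO replicate 4 or 5 there were 125 and 71, and without control replicate 1, 2 or 3 there were 107, 100 and 107. Without both CKO replicates 2 and 3, the arrays that stood apart, 651 probe sets were called and 93 of the 94 called genes were called again. In each alternative all called genes that were tested kept their direction. The groups did not overlap in any called gene, so leaving out arrays could hardly turn a direction. Several other alternatives change only the estimate of the spread, so the kept directions are not a test. Of 64 called genes described by name, 56 lost their call without double heterozygous replicate 1, 46 without replicate 2 and 35 without replicate 3, against 4 without CKO replicate 2 and 0 without CKO replicate 3. The 8 that stayed called without any single array were Krt19, Igfbp3, Ier3, Ddit4, Sparcl1, Gja4, Plod2 and Cyp26a1.

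**Figure D2:**
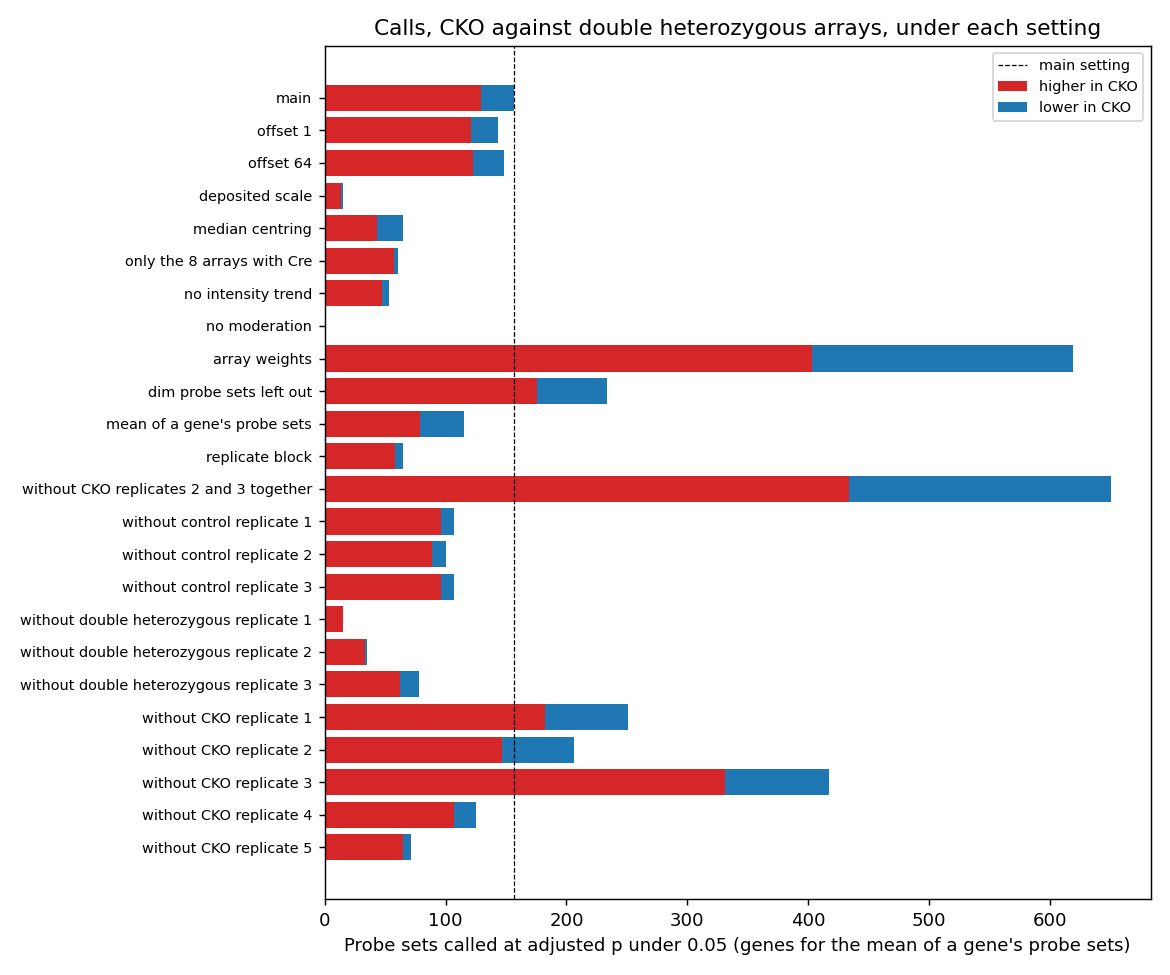
Bars give the number of probe sets called at an adjusted p under 0.05 in each setting (genes where probe sets were averaged), red for higher and blue for lower in CKO-labelled arrays. The dashed line marks the 157 of the main setting; counts run from 1 without variance moderation to 651 without CKO replicates 2 and 3.

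The largest rises were those of Ier3, Igfbp3, Ddit4 and Vldlr. Ier3, an immediate early gene induced by stress and growth factors, was at 7.72, 8.04 and 8.32 on the double heterozygous arrays and at 9.66, 9.88, 9.74, 11.19 and 10.32 on the CKO-labelled arrays. No CKO-labelled array came near the double heterozygous or control arrays (8.08 to 8.37), and CKO replicate 4 was the highest. The difference was 2.13 (SE 0.26, adjusted p = 0.00264), or 4.38-fold. Igfbp3, which encodes a secreted binding protein of insulin-like growth factors, was at 6.71, 6.75 and 6.86 in double heterozygous and at 8.70, 8.70, 8.27, 9.41 and 9.05 in CKO-labelled arrays. Its double heterozygous arrays lay within the control range of 6.36 to 6.88, and the difference was 2.05 (SE 0.20, adjusted p = 0.000266) or 4.14-fold, with both of its probe sets called. Vldlr, a receptor for lipoproteins and reelin, was higher on all 6 of its probe sets, 4 of them called, and by 1.55 on its brightest (SE 0.23, adjusted p = 0.00767). Stc1, a secreted glycoprotein hormone, rose by 1.37, Mt2, a metallothionein that binds zinc and copper, by 1.32, and Chac1, which breaks down glutathione, by 1.33. Mt2 varied among the control arrays (7.24 to 8.41) almost as much as it differed, and Chac1 was dim, so that its difference was 2.49 with an offset of 1 and 0.62 with an offset of 64.

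Krt19, a keratin of simple epithelia and mesothelium, had the smallest p-value of all genes. It was at 9.07, 8.96 and 9.09 on the double heterozygous arrays and at 10.29, 10.53, 10.35, 10.43 and 10.61 on the CKO-labelled arrays. The CKO-labelled arrays lay close together and more than 1 unit above every other array, the control arrays being at 8.71, 9.09 and 8.78. The difference was 1.40 (SE 0.099, adjusted p = 1.71e-05), or 2.65-fold, and it was called in all 23 alternatives, the only named gene of which this holds. Other keratins of simple epithelia were also higher, Krt8 by 0.53 (SE 0.10, adjusted p = 0.0394), with 2 of 3 probe sets called, and Krt18 by 0.52 without passing (adjusted p = 0.0525). Krt19 stands in a list of 14 proepicardial and mesothelial markers and Krt8 and Krt18 in one of 14 foregut and pharyngeal epithelium markers, and no other member of either list was called. Of the proepicardial list 10 of 14 genes had lower means (median -0.21), among them the transcription factors Tcf21 (-0.70, adjusted p = 0.275) and Tbx18 (-0.33, adjusted p = 0.704), while Wt1 was at 0.64 (adjusted p = 0.168). Its array medians ran from -0.81 to 0.28 in CKO-labelled and from -0.18 to 0.21 in double heterozygous arrays, with a summed intensity of 2720.9 to 3322.0 against 2305.1 to 2597.2 and with Msln and Gpm6a under 16 units in both. Of the foregut list 11 of 14 had lower means (median -0.04), Epcam was at -0.01, and Foxa1, Foxa2, Nkx2-1, Pax1 and Pax9 read under 16 units of intensity in both groups, while its summed intensity was 2063.1 to 2767.7 in CKO-labelled and 1500.1 to 2022.5 in double heterozygous arrays. Krt19, Krt8 and Krt18 are themselves part of these sums, and the part of either cell type in the keratin results was not tested.

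**Figure D3:**
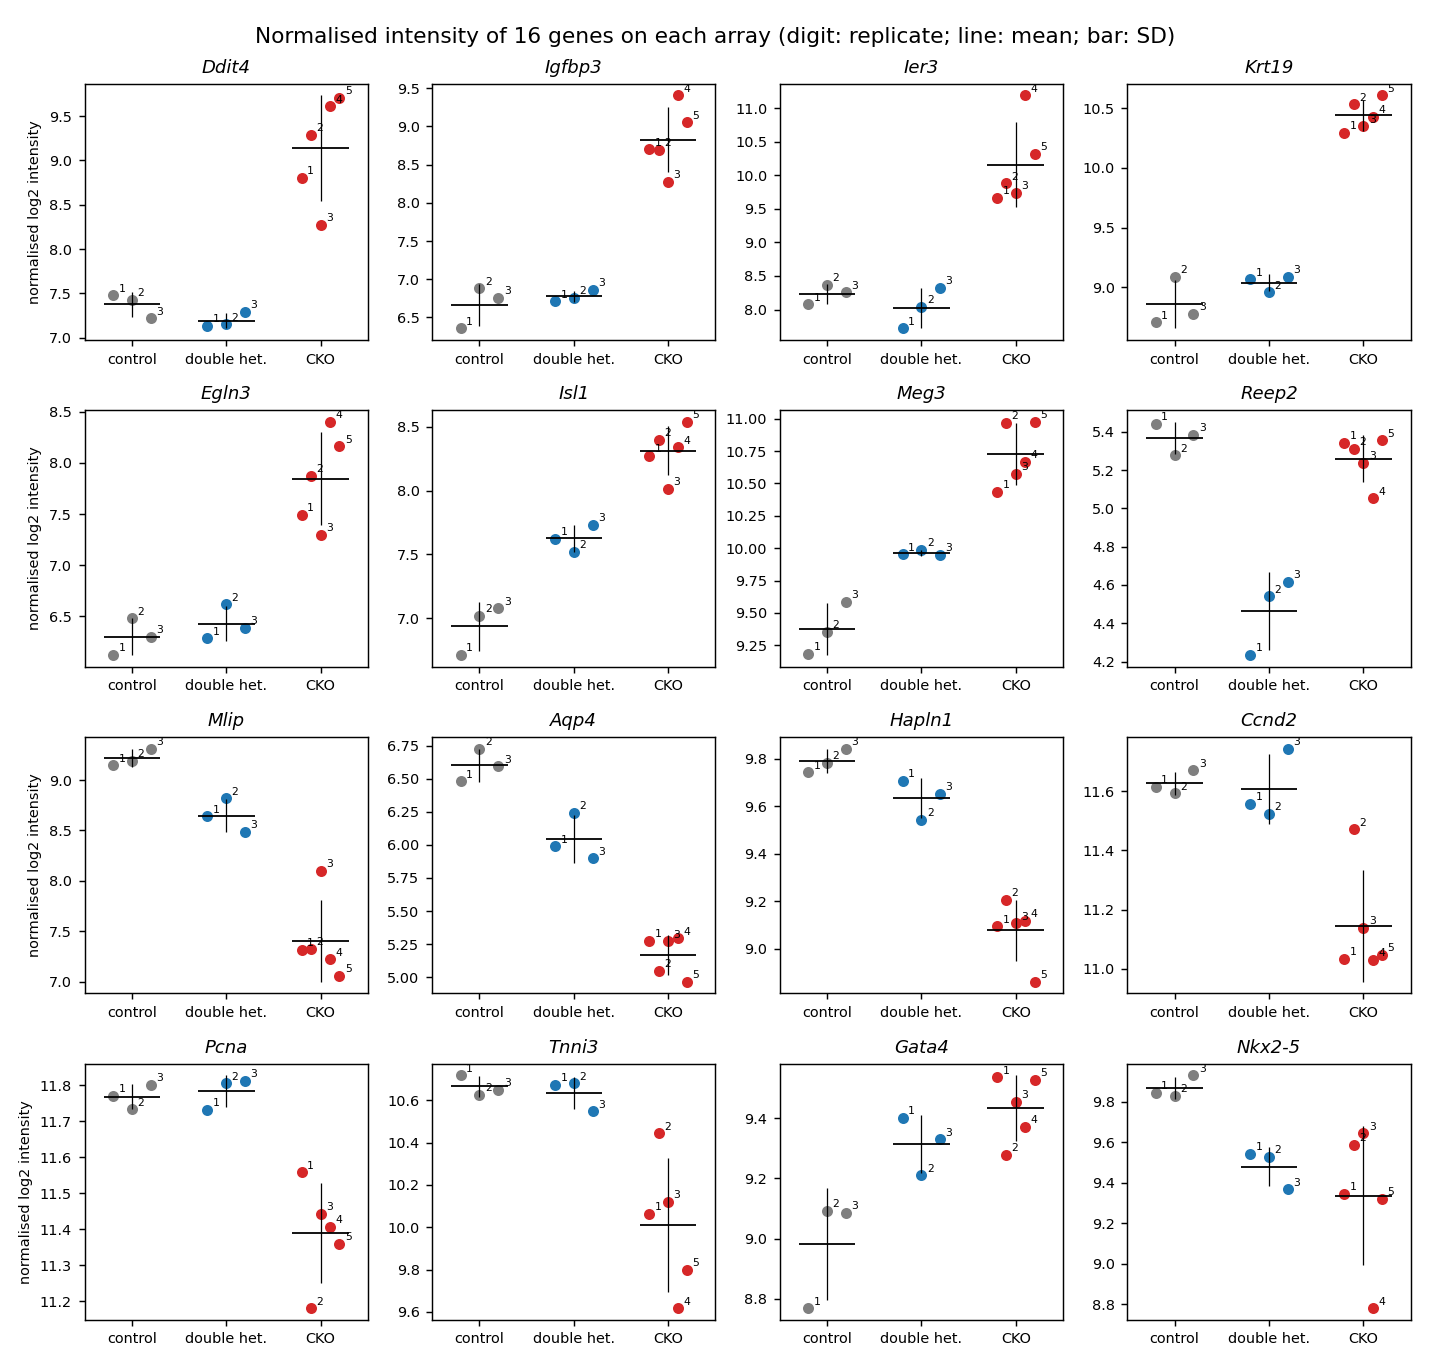
Normalised log2 intensity of 16 genes on each array, by genotype (grey control, blue double heterozygous, red CKO-labelled); digits are replicate numbers, horizontal lines means and vertical bars SDs. Krt19, Igfbp3, Ddit4 and Mlip separate the 5 CKO-labelled arrays from the others, Isl1 and Meg3 step up over the 3 genotypes, Reep2 is lowest in double heterozygous arrays, and Gata4 and Nkx2-5 overlap between the groups with Cre.

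Genes of low oxygen response and glycolysis formed the group with the most calls. The lists were chosen with earlier results of these data known, so the rank of a list is not a test. When oxygen is short, the prolyl hydroxylases that mark HIF1A for destruction slow down, and the HIF dimer binds the letters ACGTG and raises genes for glucose uptake, glycolysis, collagen hydroxylation and vessel growth. Of 29 listed genes 26 were measured, 11 rose, 0 fell and all 26 had higher means, with a median of 0.60 against -0.016 over all genes. In 19 of the 26 the CKO-labelled arrays did not overlap the double heterozygous arrays. Over all genes 9.09% did not overlap and 0.517% were called. The median over the list was 0.47, 0.65, 0.32, 0.81 and 0.76 above the double heterozygous mean on CKO replicates 1 to 5, between -0.01 and 0.02 on the double heterozygous arrays and between -0.04 and 0.06 on the control arrays. The list was lowest on CKO replicate 3, the array of low intensity, and over the alternatives its median stayed between 0.46 and 0.72. In pooled tissue, fewer cells of a type and less RNA per cell cannot be told apart, here or in the groups that follow.

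**Figure D4:**
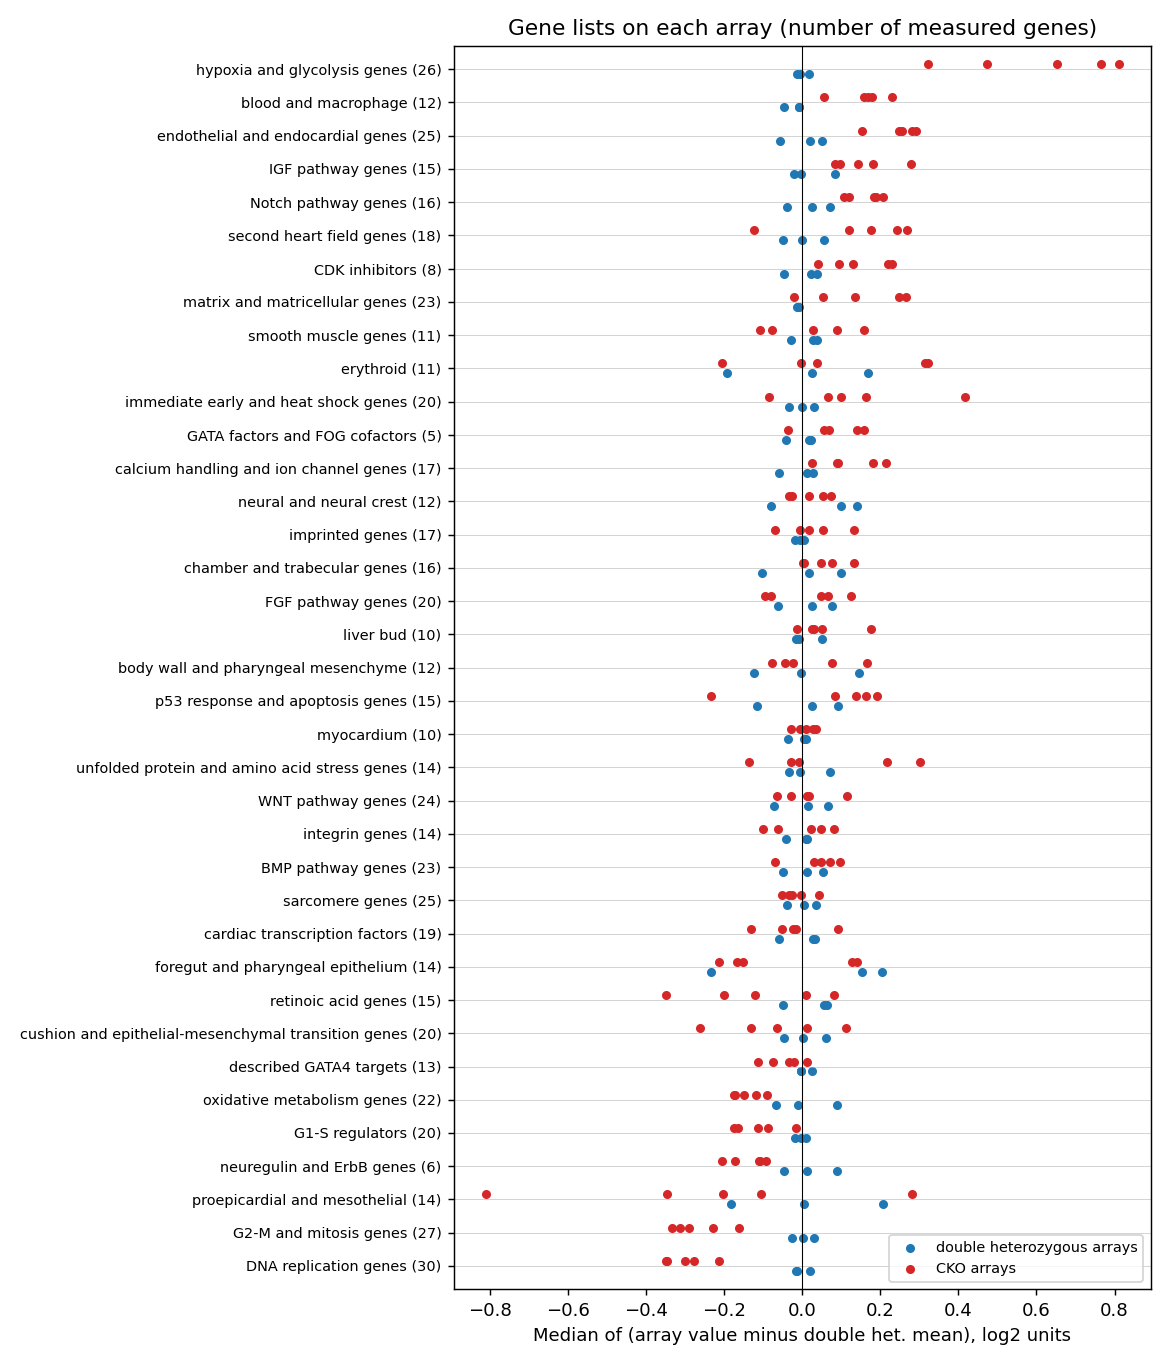
Each point is 1 array, placed by the median over a list's genes of its value minus the double heterozygous mean in log2 units (red CKO-labelled, blue double heterozygous); the number of measured genes follows each name, and lists are ordered by their median difference. Hypoxia and glycolysis genes lie highest, at 0.32 to 0.81 on the CKO-labelled arrays, and DNA replication genes lowest, at -0.35 to -0.21.

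Among the regulators of the response, Ddit4, which restrains growth through mTOR when oxygen or energy is low, was at 7.14, 7.15 and 7.29 on the double heterozygous arrays and at 8.80, 9.29, 8.27, 9.61 and 9.71 on the CKO-labelled arrays. Every CKO-labelled array was higher than every other array of the study, CKO replicate 3 by the least, and the difference was 1.94 (SE 0.24, adjusted p = 0.00289) or 3.85-fold. Egln3 and Egln1, the prolyl hydroxylases that are themselves HIF targets, rose by 1.42 (SE 0.21, adjusted p = 0.00767) and 0.75 (SE 0.11, adjusted p = 0.00767). For Egln3 the double heterozygous arrays read 6.28, 6.62 and 6.39 and the CKO-labelled arrays 7.49, 7.87, 7.30, 8.40 and 8.16. Hif1a itself, whose product is controlled mainly at the protein level, was at 0.04 (SE 0.085). Car9, a membrane carbonic anhydrase, rose by 1.27 from a dim level (4.62 to 5.20 in double heterozygous and 5.79 to 6.77 in CKO-labelled arrays), and by 1.91 with an offset of 1 and 0.65 with an offset of 64. Bnip3, a mitophagy receptor, rose by 0.74 (SE 0.095, adjusted p = 0.00325) and Higd1a, a mitochondrial protein induced by low oxygen, by 0.53. The collagen prolyl hydroxylase subunits P4ha2 and P4ha1 rose by 1.09 and 0.68, the latter on 1 of its 2 probe sets, which averaged gave 0.34 without a call.

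Of the glycolytic enzymes in the list, 3 rose. Of these, Aldoc and Pfkp lost their call when a gene's probe sets were averaged. Aldoc, an aldolase, was higher by 0.94 (SE 0.13, adjusted p = 0.00442) on the brighter of its 2 probe sets, the dim one being at -0.11 and their average at 0.42 without a call, Pfkp, a phosphofructokinase, by 0.65 (SE 0.096, adjusted p = 0.00767) and Hk2, a hexokinase, by 0.64 (SE 0.12, adjusted p = 0.0294). The enzymes Ldha (0.02), Hk1 (0.05), Pgk1 (0.10), Aldoa (0.16) and Tpi1 (0.22) did not pass, although another of the 3 Tpi1 probe sets was called. Vegfa, the growth factor of endothelial cells, was 0.98 higher on the mean without passing (SE 0.21, adjusted p = 0.0620), and so was the glucose transporter Slc2a1 at 0.29 (adjusted p = 0.0709), of which the 2 other probe sets were called. Further called genes with a place in the same processes were named after their values were seen. They were Plod2, a collagen lysyl hydroxylase (1.08, SE 0.12, adjusted p = 0.000954), Ndufa4l2, which lowers respiratory complex I activity (1.33), Ero1a, an oxidase of protein folding in the endoplasmic reticulum (0.81), Ak4, a mitochondrial adenylate kinase (0.60 on its representative probe set, and 0.27 without a call over its 5 probe sets), and the glycogen enzymes and regulators Ppp1r3c (0.82), Pygl (0.62) and Pgm1 (0.38). Ero1a, Ppp1r3c and Pgm1, like Ak4, were not called when their probe sets were averaged. Ndufa4l2 also belongs to the 12 largest rises. Oxidative metabolism genes ran the other way without a call, since 20 of 22 measured genes had lower means, with a median of -0.13, and 0 passed. Ndufs1, a complex I subunit, was at -0.34 (adjusted p = 0.165) and Cs, citrate synthase, at -0.20 (adjusted p = 0.217). Slc25a5, the mitochondrial carrier that exchanges ADP for ATP, lies outside the list and fell by 0.37 (SE 0.064, adjusted p = 0.0216). All 8 of its probe sets had lower means, and their average was not called.

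**Figure D5:**
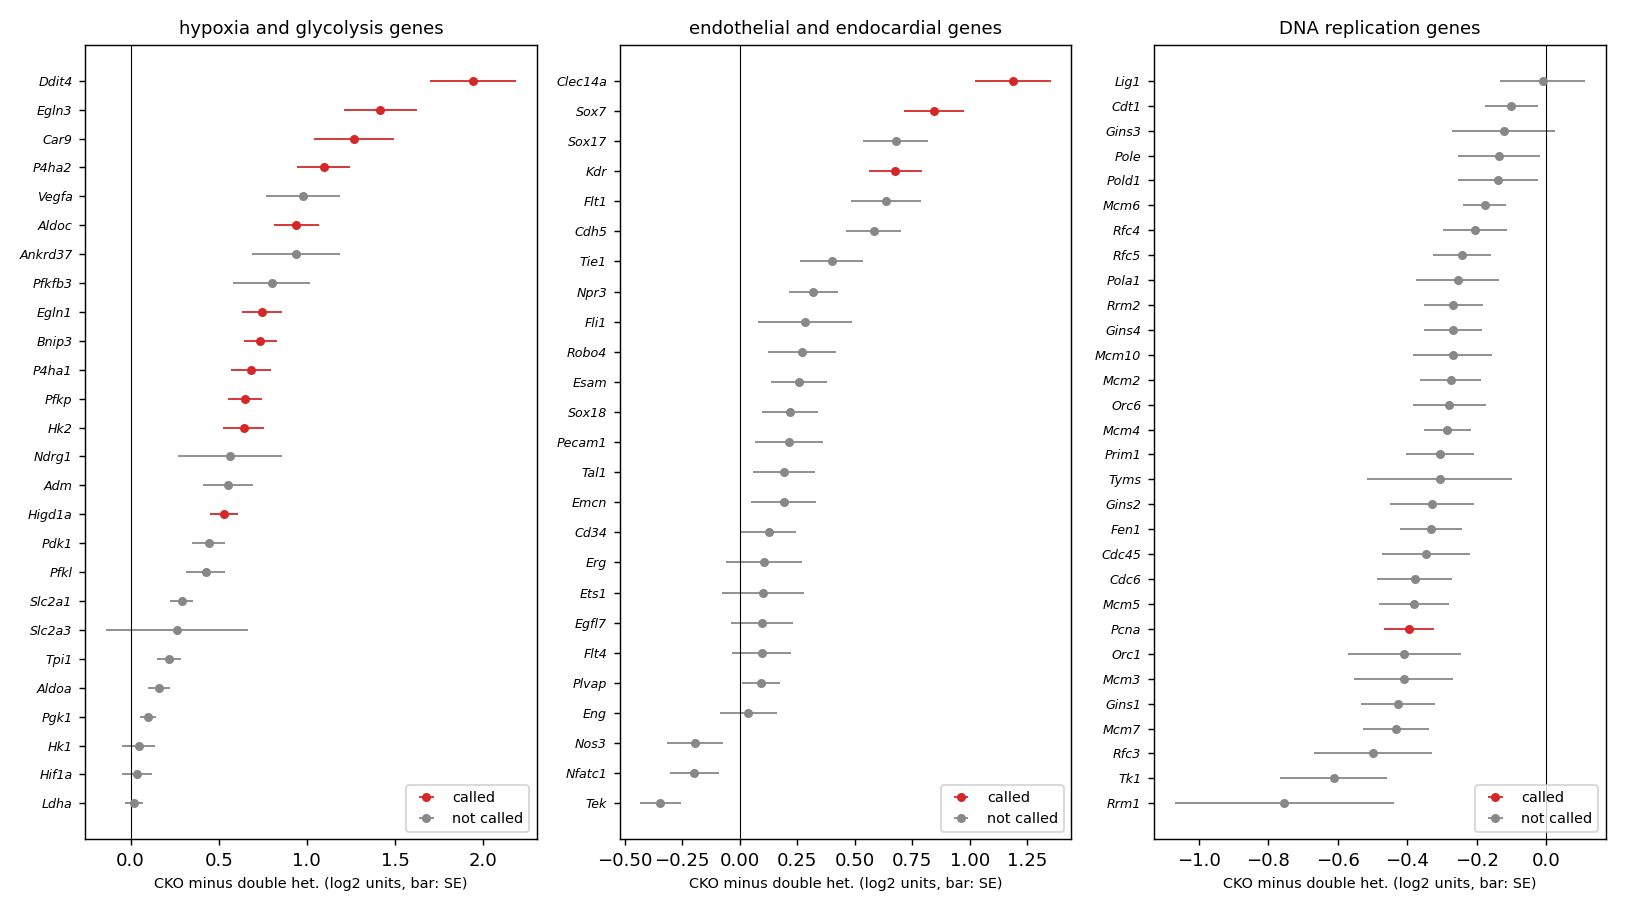
Difference of each measured member of 3 lists, CKO-labelled minus double heterozygous mean in log2 units with SE as bars; red points are called. All 26 hypoxia and glycolysis genes lie to the right of 0 and all 30 DNA replication genes to the left, while 22 of 25 endothelial and endocardial genes lie to the right.

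The promoters of the called hypoxia and glycolysis genes are shown because ACGTG, the core of the HIF binding site, stands in nearly all of them. The 8 whose match lies upstream of the start are printed; in Aldoc and Higd1a the match lies after the start, and Pfkp had none. Promoter windows were RefSeq sequences of GRCm38.p6 from 250 bases before to 50 after a gene's start, the first listed for each gene, and both strands were searched after the values were known. Of 14452 measured genes with a window, 23.2% held ACGTG. Among called genes with a window it was 44.4% of 54 that rose and 30.8% of 13 that fell, and in the hypoxia and glycolysis list 66.7% of 24. Of the 11 called members of that list 10 held it. All 11 rose, so these 10 are among the 24 risen genes that held ACGTG. The share among risen genes therefore partly counts the list again. Whether the other risen genes held it more often than genes that fell was not tested. The windows of called members and of genes that rose were also richer in G and C. The median was 69% in the 11 called members and 65% in genes that rose, against 58.7% over all windows. The GC-rich letters GGGCGG stood in 90.9% of the same 11 windows against 54% of all. The match says only that the letters are present. The list was drawn up for low oxygen response and glycolysis, so its share of these letters is not a test of HIF binding. In the stretches below, 5′ to 3′ on the gene's strand and all upstream of the start, capitals mark ACGTG or its complement CACGT, and in Bnip3 both overlap. Hk2 and P4ha2 each held a second match outside the stretch.
Ddit4 (chr10:59951923-59951987, minus strand, match 187 bases before the start): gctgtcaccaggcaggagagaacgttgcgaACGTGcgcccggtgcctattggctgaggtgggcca
Egln3 (chr12:54204069-54204124, minus strand, match 229 bases before the start): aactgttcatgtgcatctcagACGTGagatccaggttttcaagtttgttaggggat
Egln1 (chr8:124949288-124949352, minus strand, match 68 bases before the start): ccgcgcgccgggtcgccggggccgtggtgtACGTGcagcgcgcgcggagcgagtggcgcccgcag
Bnip3 (chr7:138909580-138909644, minus strand, match 108 bases before the start): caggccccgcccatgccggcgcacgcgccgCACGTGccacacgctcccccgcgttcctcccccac
P4ha2 (chr11:54100816-54100880, plus strand, match 78 bases before the start): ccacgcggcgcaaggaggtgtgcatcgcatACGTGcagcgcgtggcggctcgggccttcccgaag
Hk2 (chr6:82774646-82774704, minus strand, match 226 bases before the start): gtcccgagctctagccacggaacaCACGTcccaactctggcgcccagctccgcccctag
P4ha1 (chr10:59323250-59323295, plus strand, match 16 bases before the start): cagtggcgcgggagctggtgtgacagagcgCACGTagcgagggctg
Car9 (chr4:43506978-43507025, plus strand, match 18 bases before the start): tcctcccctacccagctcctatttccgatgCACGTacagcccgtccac

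Endothelial genes were the other group with several rises. Endothelium lines the vessels and, as endocardium, the heart tube, and at this stage its VEGF receptors, SOX factors and junction proteins mark it. Of 25 listed genes all were measured, 3 rose, 0 fell and 22 had higher means (median 0.21). In 10 the groups did not overlap, against 9.09% of all genes. The median was 0.14 on the scale as deposited and 0.09 after median centring. The list's array medians were 0.15 to 0.29 on the CKO-labelled and -0.06 to 0.05 on the double heterozygous arrays. Clec14a, an endothelial lectin, was at 6.15, 6.67 and 6.11 in double heterozygous and at 7.74, 7.46, 7.10, 7.62 and 7.58 in CKO-labelled arrays, with no overlap and a difference of 1.19 (SE 0.16, adjusted p = 0.00453). Kdr, the main VEGF receptor, was at 8.64, 8.74 and 8.87 and at 9.30, 9.67, 9.19, 9.58 and 9.40, a difference of 0.68 (SE 0.11, adjusted p = 0.0178). Sox7, a transcription factor of endothelial precursors, rose by 0.84 (SE 0.13, adjusted p = 0.00949) on 1 of its 2 probe sets, the other being lower, and averaged they gave 0.36 without a call. Cdh5, the adherens junction cadherin, was 0.58 above on the mean (adjusted p = 0.0571), Sox17 0.68 (adjusted p = 0.0602, with its other probe set called) and Flt1, a decoy VEGF receptor, 0.63 (adjusted p = 0.104).

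The vascular genes did not all rise. Tek, the angiopoietin receptor, was at -0.34 (adjusted p = 0.127) with no overlap between the groups, and Nfatc1, the endocardial factor of valve formation, was at -0.20 (adjusted p = 0.489), while Pecam1 was at 0.21 and Eng at 0.04. Outside the list, further called genes were named after their values were seen. Gja4, a gap junction protein of arterial endothelium, rose by 1.16 (SE 0.13, adjusted p = 0.00153) and Vwf, von Willebrand factor, by 1.12 (SE 0.15, adjusted p = 0.00325). Tmem100, an endothelial membrane protein, rose by 1.07, Cxcl12, a chemokine, by 0.89 and Aplnr, the apelin receptor, by 0.75. Averaged over its 2 probe sets, Aplnr was not called. On the Notch list, 1 of 16 genes rose, the endothelial receptor Notch4 (0.73, SE 0.15, adjusted p = 0.0470), and 13 had higher means (median 0.20, or 0.08 after median centring). Of the 3 Notch4 probe sets 1 had a lower mean, and averaged they gave 0.25, which was not called (adjusted p = 0.419). Hey1, a Notch target, was at 0.48 (adjusted p = 0.0610). Without any 1 of the 3 control, 3 double heterozygous or CKO replicates 1, 2, 4 and 5 Notch4 lost its call, at 0.64 to 0.78. Blood and macrophage markers also had higher means in 10 of 12 genes (median 0.22, 0 called), with a summed intensity of 716.9 to 1442.7 in CKO-labelled and 682.2 to 695.7 in double heterozygous arrays and with Cx3cr1, Cd68 and Gp9 under 16 units in both. Ptprc, the member of this list with the smallest p, went the other way at -0.77 (adjusted p = 0.233), at a dim signal. The part of blood cells in the endothelial result was not tested. Erythroid markers had 0 of 11 called and overlapping sums (18557.6 to 25169.0 against 19077.6 to 23665.1).

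Mlip, which encodes a muscle protein that binds lamin A, fell the most of all called genes. It was at 8.64, 8.82 and 8.49 on the double heterozygous arrays and at 7.32, 7.32, 8.10, 7.22 and 7.06 on the CKO-labelled arrays. The groups did not overlap, CKO replicate 3 was closest to the double heterozygous arrays, and the control arrays were higher still, at 9.15, 9.19 and 9.31. The difference was -1.24 (SE 0.18, adjusted p = 0.00693), and it was -1.25 and -1.15 without double heterozygous replicates 1 and 2, where the call was lost. A second, dim Mlip probe set was at 0.09 and did not fall, and averaged they gave -0.58. The Mlip promoter is shown because it held the letters bound by GATA factors (AGATAA or AGATAG and also TGATAA or TGATAG, both strands) in 3 places, 2 of them side by side, where 22.3% of all windows held any, 38.5% of the 13 windows of genes that fell and 18.5% of the 54 of genes that rose. Capitals mark the adjoining pair, which begins 142 bases before the start. The remaining place begins 8 bases after the start. The same window also held 3 matches of ACGTG over both strands, outside the stretch shown.
Mlip (chr9:77347977-77348042, minus strand): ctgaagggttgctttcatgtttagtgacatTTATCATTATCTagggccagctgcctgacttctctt

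Of the lists of heart muscle genes, Mlip and Ccnd2 were the only called members. An unadjusted p under 0.05 was more frequent than the 13.2% of all genes in several of them, at 8 of 16 chamber and trabecular, 8 of 25 sarcomere, 6 of 13 GATA4 target, 6 of 17 calcium handling and 5 of 19 transcription factor genes. Of 10 myocardial markers 0 were called, the median was 0.03 and their summed intensity was 52678.6 to 56730.2 in CKO-labelled and 52893.4 to 54780.9 in double heterozygous arrays, so the defining markers of the labelled tissue were present in both. Of 25 sarcomere genes 0 were called (median -0.02). Tnni3, the cardiac inhibitory troponin, was at 10.67, 10.68 and 10.55 in double heterozygous and at 10.06, 10.44, 10.12, 9.62 and 9.80 in CKO-labelled arrays, which did not overlap, and at -0.62 it did not pass (SE 0.13, adjusted p = 0.0625). Myh7, a myosin heavy chain, was at 0.16 (adjusted p = 0.228) and Acta1, skeletal alpha-actin, at 0.19 (adjusted p = 0.179). Of 19 cardiac transcription factors 0 were called (median -0.04), with the ventricular factor Irx4 at -0.47 (adjusted p = 0.118) and Myocd, the coactivator of smooth and cardiac muscle genes, at 0.46 (adjusted p = 0.177). Of 16 chamber and trabecular genes Mlip fell and Fhl2, a LIM-domain protein, was at -0.56 (adjusted p = 0.0520), while the natriuretic peptide gene Nppa was at 0.33 (adjusted p = 0.128). Of 13 measured genes described as GATA4 targets, Ccnd2 fell, 0 rose and 7 had lower means (median -0.10). Calcium handling and ion channel genes had 0 of 17 called (median 0.11) and smooth muscle genes 0 of 11 (median 0.15). With median centring the medians were -0.13 for myocardial markers, -0.15 for sarcomere, -0.10 for chamber, -0.21 for transcription factor, -0.26 for GATA4 target, -0.01 for calcium handling and 0 for smooth muscle genes, so their directions depend on the scaling or lie near 0 for all but the transcription factors and GATA4 targets. Lmod3, an actin-binding protein of striated muscle named after its value was seen, rose by 0.58 (SE 0.11, adjusted p = 0.0320).

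The other named falls belonged to genes of different kinds. Aqp4, a water channel, was at 5.99, 6.25 and 5.90 in double heterozygous and at 5.27, 5.05, 5.27, 5.29 and 4.97 in CKO-labelled arrays, below the 6.48 to 6.73 of the control arrays in each case. Its difference was -0.87 (SE 0.14, adjusted p = 0.0135), and all 3 Aqp4 probe sets had lower means. Agtr1a, an angiotensin receptor, fell by 0.89 (SE 0.15, adjusted p = 0.0216), Iqgap2, a scaffold protein, by 0.74, Frmd5, a FERM-domain protein, by 0.71 and Ppp1r14c, an inhibitor of protein phosphatase, by 0.62. For Agtr1a, Iqgap2 and Ppp1r14c the control and double heterozygous arrays read alike on the mean (6.10 and 6.02, 7.05 and 6.93, 9.63 and 9.76). Rpp25, a subunit of RNase P, fell by 0.76 (SE 0.15, with an adjusted p just under the threshold), Ltv1, a factor of ribosome assembly, by 0.57 and Got1, an aminotransferase, by 0.52. Lemd1 lay near the lowest values of the scale in CKO-labelled arrays (4.26 at the highest, against 4.63 to 4.99), so that its difference of -0.69 was -3.02 with an offset of 1 and -0.21 with an offset of 64.

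Isl1, the LIM-homeodomain factor that marks second heart field progenitors and is switched off as they differentiate, rose. It was at 7.62, 7.52 and 7.73 on the double heterozygous arrays and at 8.27, 8.40, 8.01, 8.34 and 8.54 on the CKO-labelled arrays. The groups did not overlap, and the control arrays were lower than both, at 6.71, 7.02 and 7.08. The difference was 0.69 (SE 0.13, adjusted p = 0.0309), or 1.61-fold, and the other Isl1 probe set was at 0.54 (adjusted p = 0.0854). The call was lost without control replicate 2, any double heterozygous array, or CKO replicates 4 or 5, at 0.63 to 0.74. Of 18 measured second heart field genes, Sema3c, a guidance cue of the outflow tract (0.51, SE 0.098, adjusted p = 0.0394), also rose, on 1 of its 2 probe sets (0.18 without a call when averaged), 0 fell and the median was 0.19. Wnt5a, a ligand of outflow tract progenitors, was at 0.46 (adjusted p = 0.0620) with no overlap between the groups and 1 of its 4 probe sets called, and Tbx1 read under 16 units in both. Median centring brought the list's median to 0.05, and its array medians ran from -0.12 to 0.27 in CKO-labelled arrays.

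Cardiac jelly and cushion genes moved in both directions. Hyaluronan made by HAS2, versican and the link protein HAPLN1 together form the gel between myocardium and endocardium in which cushions grow. Hapln1 was at 9.71, 9.54 and 9.65 on the double heterozygous arrays and at 9.10, 9.21, 9.11, 9.12 and 8.86 on the CKO-labelled arrays, without overlap and with the control arrays at 9.74 to 9.84. It fell by 0.56 (SE 0.086, adjusted p = 0.00955), and all 4 of its probe sets had lower means. Has2, the hyaluronan synthase, was at 8.06, 8.06 and 8.22 and at 7.71, 7.40, 7.59, 7.62 and 7.62, and fell by 0.52 (SE 0.10, adjusted p = 0.0430). Vcan, which encodes versican, rose by 0.38 (SE 0.066, adjusted p = 0.0219), from 10.78 to 10.85 in double heterozygous to 11.10 to 11.36 in CKO-labelled arrays, and 7 of 8 Vcan probe sets had higher means, with 0.22 and no call when they were averaged. Of 20 cushion and epithelial-mesenchymal transition genes these were the only 3 called, and 10 had higher means (median -0.08). Tgfb3 was at 0.80 (adjusted p = 0.0610) and Sox9, a factor of cushion mesenchyme, at -0.54 (adjusted p = 0.182).

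Of 23 other matrix and matricellular genes 2 rose and 1 fell (median 0.16, or 0.01 after median centring). Sparcl1, a secreted relative of SPARC, rose by 1.33 (SE 0.16, adjusted p = 0.00207), with control arrays lower (6.07 to 6.32) than double heterozygous (6.57 to 6.92) and CKO-labelled arrays (7.78 to 8.52). Ccn2, a matricellular growth factor modulator, rose by 0.91 (SE 0.18, adjusted p = 0.0394), and CKO replicate 4 at 10.43 stood above the 9.53 to 9.63 of the other CKO-labelled arrays. Col2a1, the fibrillar collagen of cartilage and of early valve mesenchyme, fell by 0.49 (SE 0.099, adjusted p = 0.0493). Among 14 integrin genes 0 were called. Itga4, the alpha chain of the receptor for VCAM1 and fibronectin, was at 5.96, 6.80 and 6.38 in double heterozygous and at 4.98, 4.94, 5.48, 6.18 and 5.28 in CKO-labelled arrays. The arrays overlapped through CKO replicate 4, and the difference of -1.01 did not pass (SE 0.25, adjusted p = 0.115), with the control arrays at 7.20 to 7.55.

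Cell cycle genes read lower as a group, with few calls. Ccnd2, a D-type cyclin that promotes entry into S phase, was at 11.56, 11.52 and 11.74 on the double heterozygous arrays and at 11.03, 11.47, 11.14, 11.03 and 11.05 on the CKO-labelled arrays. The groups did not overlap, but CKO replicate 2 lay only just below the lowest double heterozygous array, and the control arrays (11.59 to 11.67) read like the double heterozygous ones. The difference was -0.46 (SE 0.092, adjusted p = 0.0464), or 1.38-fold lower. All 7 Ccnd2 probe sets had lower means, and a second one was called at -0.48 (SE 0.073, adjusted p = 0.00873). The call on the brightest probe set was lost in 16 of 23 alternatives with adjusted p up to 0.284, and it was lost without any 1 of the control or double heterozygous arrays or of CKO replicates 1, 4 and 5, at -0.51 to -0.40. Without CKO replicate 2 the difference was -0.55 (adjusted p = 0.00193). In the list of 20 G1-S regulators Ccnd2 was the 1 called gene, 14 had lower means (median -0.15), and Ccna2 was at -0.37 (adjusted p = 0.128) and Cdk4 at -0.17 (adjusted p = 0.392).

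All 30 measured DNA replication genes had lower means in CKO-labelled arrays, with a median of -0.30. In 18 of them the groups did not overlap, against 9.09% of all genes. The list's array medians were -0.21, -0.35, -0.28, -0.35 and -0.30 on CKO replicates 1 to 5, between -0.02 and 0.02 on the double heterozygous arrays and between -0.01 and 0.05 on the control arrays. Each CKO-labelled array thus lay below all 6 other arrays, and over the alternatives the list's median stayed between -0.45 and -0.23. The 1 call was Pcna, the sliding clamp of DNA polymerase, at 11.73, 11.81 and 11.81 in double heterozygous and 11.56, 11.18, 11.44, 11.41 and 11.36 in CKO-labelled arrays, a fall of 0.39 (SE 0.072, adjusted p = 0.0290). Mcm7 and Mcm4, subunits of the replicative helicase, were at -0.43 (adjusted p = 0.0660) and -0.28 (adjusted p = 0.103), and Tk1, thymidine kinase, at -0.61 (adjusted p = 0.118). Of 27 G2-M and mitosis genes 25 had lower means (median -0.27) and in 18 the groups did not overlap, again against 9.09%. Kif20a, a kinesin of cytokinesis, was at 8.93, 8.96 and 8.88 and at 8.58, 8.07, 8.48, 8.37 and 8.18, and fell by 0.59 (SE 0.11, adjusted p = 0.0337). Cdc20, an activator of the anaphase-promoting complex, was at -0.43 (adjusted p = 0.0525) and Aurka, a mitotic kinase, at -0.40 (adjusted p = 0.0955).

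The calls of Pcna and Kif20a each rested on most arrays, being lost in 7 and 8 of the 11 fits without 1 array (all 6 control and double heterozygous arrays and CKO replicate 5, for Kif20a also CKO replicate 4), at -0.42 to -0.38 and -0.61 to -0.55. All 8 CDK inhibitors had higher means (median 0.19) and 0 were called, with Cdkn1b at 0.49 (adjusted p = 0.275), which read -0.01 as the mean of its probe sets, and Cdkn1a at 0.30 (adjusted p = 0.561). Some cell cycle genes outside the lists were named after their values were seen, so their shared direction comes from that choice. Btg2 was higher by 0.72 (SE 0.11, adjusted p = 0.00840), Ccng2 by 0.82 (SE 0.17, adjusted p = 0.0491) and Plk2 by 0.75 (SE 0.12, adjusted p = 0.0117). The second, dim Plk2 probe set was at -0.04, and averaged they gave 0.35 without a call (adjusted p = 0.169). Ccng2 also lost its call when its 2 probe sets were averaged. In the list of p53 response and apoptosis genes 0 of 15 were called (median 0.03), with Bcl2l11 at 0.58 (adjusted p = 0.140).

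Signalling lists otherwise held single calls or none. Of 15 insulin-like growth factor genes Igfbp3 was the 1 called gene, and 12 had higher means (median 0.21, or 0.05 after median centring). Of 15 measured retinoic acid genes Cyp26a1, which degrades retinoic acid, rose from 4.72 to 5.16 in double heterozygous to a median of 6.21 and at most 6.29 in CKO-labelled arrays, by 1.16 (SE 0.16, adjusted p = 0.00451), and it kept its call in 22 of 23 alternatives. Its signal was dim, and the difference was 1.75 with an offset of 1 and 0.58 with an offset of 64. The binding protein Crabp2 was at -0.47 (adjusted p = 0.158). BMP (0 of 23), WNT (0 of 24), FGF (0 of 20) and neuregulin and ErbB genes (0 of 6) had no calls. Among them the receptor Fzd1 was at 0.77 (adjusted p = 0.0748), the WNT inhibitor Frzb at -0.83 (adjusted p = 0.116), the BMP antagonist Smad7 at 0.55 (adjusted p = 0.148) and Lef1, a WNT effector, at -0.59 (adjusted p = 0.140). Apart from Ier3, immediate early and heat shock genes had no calls (1 of 20, median 0.14), and apart from Chac1 neither did those of the unfolded protein response and amino acid shortage (1 of 14, median 0.01).

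Single genes showed different orders over the 3 genotypes. Meg3, a maternally expressed long noncoding RNA, was at 9.95, 9.99 and 9.95 on the double heterozygous arrays, at 10.44, 10.97, 10.58, 10.67 and 10.98 on the CKO-labelled arrays and at 9.19 to 9.59 on the control arrays. It rose by 0.76 (SE 0.12, adjusted p = 0.0113), all 11 of its probe sets had higher means and 4 were called. The call was lost without any 1 of the 3 double heterozygous arrays, at 0.75 to 0.77. It was the only called gene of 17 measured imprinted genes (median 0.07), and its neighbours in the same imprinted cluster, Rian and Mirg, were at 0.85 (adjusted p = 0.202) and 0.58 (adjusted p = 0.165). Reep2, an endoplasmic reticulum shaping protein named after its value was seen, was lowest in the double heterozygous group. It read 5.28 to 5.44 on control arrays, 4.23, 4.54 and 4.62 on double heterozygous arrays and 5.34, 5.31, 5.24, 5.05 and 5.36 on CKO-labelled arrays. Its rise of 0.80 (SE 0.14, adjusted p = 0.0258) thus brought the CKO-labelled arrays to the control level, at a dim signal where an offset of 64 gave 0.30.

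Genes next to Gata4 on the chromosome were looked at because both groups differ in the origin of the second Gata4 allele. Of 40 protein-coding genes within 20 places of Gata4, 30 were measured and 1 was called, Sox7, at 7 places. The groups did not overlap in 4 of the 30 (9.09% of all genes), and 5 had an unadjusted p under 0.05 (13.2% of all genes). The median difference of the 30 was 0.00, with a range of -0.44 to 0.84. Of the other marker lists, liver bud (0 of 10), neural and neural crest (0 of 12), and body wall and pharyngeal mesenchyme genes (0 of 12) had no calls, with Alb, Apoa1, Apob and Fgb of the first under 16 units in both groups. Summed intensity was 248.4 to 545.3 against 234.1 to 245.9 for liver bud, 816.2 to 1271.0 against 598.4 to 819.6 for neural and 813.3 to 1088.7 against 934.5 to 1088.6 for mesenchyme genes, in CKO-labelled and double heterozygous arrays in turn. Of 4 measured genes that tell the sex of the embryos in the pools 0 were called, and 3 had higher means and 1 a lower mean. Xist was at 0.62 (SE 0.34), with 8.19 to 9.94 on CKO-labelled and 8.04 to 9.05 on double heterozygous arrays. The part of the sex mix of the pools was not tested.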

How the data were processed

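Per the labels' protocols, 50 ng of total RNA was amplified for each array. The authors summarised probe sets with PLIER, per the submitters' processing notes, and deposited linear intensity values. For PLIER, the version, background correction and scaling were not given in the sources used here. From 45101 probe sets 64 controls were left out. Log2 of intensity plus 16 was quantile normalised over 11 arrays and fitted with limma 3.58.1 in R 4.3.3, with 1 coefficient per genotype, intensity trend and two-sided tests (8 residual degrees of freedom). The fit was tried on simulated data with independent noise of the same spread on every array. That trial does not cover arrays of unequal quality, such as those of the CKO group. Symbols came from platform annotation (34945 probe sets with 1 symbol, 932 with several, 9160 with none); each gene took its brightest probe set, passing over _x_at and _s_at where another existed. The members and the 38 gene lists, 606 genes of which 575 were measured, were chosen with earlier results of these data known, and lists are described without a test. Named were Gata4, Nkx2-5 and Ccnd2, the 12 largest rises and falls among called genes without overlap, and up to 4 called members of each list (2 of lowest p where none was called); other genes were named after their values were seen. There were 23 alternatives.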

Additional observations from a re-analysis of the deposited data

Results flagged for a closer look

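In 105 named genes the lowest and highest of the 5 CKO-labelled arrays were set against the others by Dixon's ratio (critical value 0.71), and 7 genes stood out, where chance flags about 1 in 20 groups. Array CKO replicate 2 stood apart in 3 of them. It read 11.47 for Ccnd2, with the other CKO-labelled arrays at 11.03 to 11.14, 8.76 for Nes, a neural intermediate filament gene (others 7.78 to 7.98), and 6.96 for Spi1, a blood lineage transcription factor (others 6.35 to 6.43). CKO replicate 3 read 8.1 for Mlip (others 7.06 to 7.32) and 11.64 for Fam162a, a mitochondrial protein induced by low oxygen (others 11.73 to 11.77). CKO replicate 4 read 10.43 for Ccn2 (others 9.53 to 9.63) and 4.26 for Lemd1 (others 4 to 4.06), the latter near the bottom of the scale.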

How the results depend on the processing

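The 157 called probe sets became 15 on the deposited scale, 65 with median centring, 61 when only the 8 arrays with Cre were fitted, 53 without the intensity trend, 1 without variance moderation (Krt19, with 5115 at an unadjusted p under 0.05), 619 with array weights and 651 without CKO replicates 2 and 3. They stayed within 1.5 times with other offsets (143 and 148), with dim probe sets left out (234) and with a gene's probe sets averaged (115 genes, against 94). Without 1 array the count ran from 15 to 417. With the replicate number as a block it was 65. Same-numbered double heterozygous and CKO-labelled arrays had correlations of their deviations of 0.004, 0.061 and 0.15. Pairs of different number ran from -0.135 to 0.118. The main fit did not take the numbers to pair samples, and whether they mark a shared batch was not tested. The 64 named called genes kept their direction in every alternative, which their lack of overlap largely fixed beforehand. Signs turned for genes without a call: Gata4 (0 on the deposited scale, -0.05 with median centring, -0.10 as the mean of probe sets), Tfrc (-0.01, -0.06 and -0.27 in the same order, from 0.13), Cdkn1b (-0.01 as the mean of probe sets, from 0.49) and Nkx2-5 (0.05 with the replicate block, from -0.14). Dim genes depend on the offset, and the smallest difference called on a representative probe set was that of Fam162a, at 0.34 after rounding.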
